A study of Mus musculus with 16 samples.

Results

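The 10 genes described here encode the hypoxia-inducible factors (HIFs) and the enzymes that couple these factors to oxygen: the alpha subunits Hif1a, Epas1 (which encodes HIF-2α) and Hif3a, the beta subunits Arnt and Arnt2, the prolyl hydroxylases Egln1, Egln2 and Egln3, the ubiquitin ligase subunit Vhl and the asparaginyl hydroxylase Hif1an. They were taken by symbol from 2 tables of 38926 gene names and by Ensembl identifier from files of 21603 genes, and all 10 were found in each. RNA-seq was performed on endothelial cells (ECs) sorted from mouse bone, in 16 libraries from C57BL/6 mice. For the comparison of vessel regions, ECs were taken from the femoral metaphysis (mpECs, 3 libraries) or from the marrow cavity of the diaphysis (bmECs, 3 libraries) of 3-week-old wildtype mice with the Cdh5-mT/nG reporter, which labels ECs. The Yap1/Taz comparison, at postnatal day 21, used mice whose Yap1flx/flx and Wwtr1flx/flx alleles (Wwtr1 encodes Taz) were shared by all animals, with 3 Cdh5CreERT2-negative control libraries and 3 Cdh5CreERT2-positive libraries labelled ECKO. The Lats2 comparison used 3-week-old Lats2flx/flx mice, with 2 Cdh5CreERT2-negative control libraries and 2 Cdh5CreERT2-positive libraries labelled cKO. Cdh5CreERT2 is a tamoxifen-inducible Cre under the promoter of an endothelial cadherin, so that recombination can occur in ECs of the whole body, and mice of either sex were combined. The study's methods describe daily injections of tamoxifen into pups to induce recombination.

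HIF is a pair of an alpha and a beta subunit. In oxygenated cells the Egln enzymes hydroxylate prolines of the alpha subunit, the Vhl complex then binds and ubiquitinates it, and the proteasome degrades it, while Hif1an hydroxylates an asparagine and blocks the contact with coactivators. When oxygen is scarce, the alpha subunit persists, joins Arnt and binds DNA at the short core motifs ACGTG and GCGTG. This control acts on protein, and mRNA levels as measured here do not report on hydroxylation or on protein. Bone marrow is a tissue of low oxygen tension, and Epas1 is known for its high expression in endothelium.

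The 250 bases before the start site, from RefSeq's GRCm38.p6 annotation, are shown 5′ to 3′ on the gene's own strand for the 4 members that passed the test in any comparison, with each match to ACGTG or GCGTG on either strand in capitals. The windows are chr12:73907617-73907866 (+ strand) for Hif1a, chr8:124949255-124949504 (− strand) for Egln1, chr12:54203875-54204124 (− strand) for Egln3 and chr6:113623744-113623993 (+ strand) for Vhl. The gene spans given below come from another annotation, GENCODE M21, with other start sites. By those spans, the whole Hif1a window and part of the Egln1 and Vhl windows lie inside the gene.
Hif1a: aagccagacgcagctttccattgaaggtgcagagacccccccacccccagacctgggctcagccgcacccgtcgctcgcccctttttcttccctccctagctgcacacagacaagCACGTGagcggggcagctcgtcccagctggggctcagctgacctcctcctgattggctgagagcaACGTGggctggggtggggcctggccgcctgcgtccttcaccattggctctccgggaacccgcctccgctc
Egln1: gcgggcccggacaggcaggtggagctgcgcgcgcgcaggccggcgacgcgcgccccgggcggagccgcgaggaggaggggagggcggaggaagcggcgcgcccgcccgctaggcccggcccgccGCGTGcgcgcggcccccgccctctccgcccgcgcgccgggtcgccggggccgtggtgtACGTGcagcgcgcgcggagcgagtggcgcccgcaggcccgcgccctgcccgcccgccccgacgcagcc
Egln3: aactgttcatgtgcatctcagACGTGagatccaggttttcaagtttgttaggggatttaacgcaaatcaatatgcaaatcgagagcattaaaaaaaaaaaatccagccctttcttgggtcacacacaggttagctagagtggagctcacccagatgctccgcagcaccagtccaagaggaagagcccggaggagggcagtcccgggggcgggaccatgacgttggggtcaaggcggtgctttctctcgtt
Vhl: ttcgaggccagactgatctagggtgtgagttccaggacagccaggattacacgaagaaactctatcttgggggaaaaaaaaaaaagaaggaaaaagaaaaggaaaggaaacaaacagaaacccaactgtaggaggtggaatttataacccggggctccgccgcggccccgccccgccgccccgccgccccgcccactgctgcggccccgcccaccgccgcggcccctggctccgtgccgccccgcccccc
Hif1a held 3 matches, all to ACGTG, of which a pair came from the overlapping strands of a CACGTG. Egln1 held 1 match to each motif, Egln3 held 1 ACGTG far from its start site, and Vhl held none of these letters in this window. Windows were found for 9 of the 10 members, with Epas1 missing and with 2 alternative start sites for Egln2, and 6 of the 9 members held a match. Over 32851 mouse promoters, 16.6% held ACGTG, 28.2% held GCGTG and 38.6% held either, so a match is a common feature and is given as a description only.

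Values are FPKM, fragment counts scaled to gene length and library depth, and the reads behind them were recovered from the steps between the lowest values. Reads on genes numbered 11590958 to 15476296 per library for mpECs and bmECs, 4889945 to 7162965 for the Yap1/Taz libraries and 4883602 to 7345176 for the Lats2 libraries. The 3 sets were normalized separately, so levels were compared within a set only. All 8 endothelial markers (Cdh5, Pecam1, Kdr, Tek, Emcn, Tie1, Egfl7 and Esam) were detected in every library, with a summed level of 1148 to 1469 FPKM in mpECs and bmECs, 508 to 693 in the Yap1/Taz set and 2058 to 2225 in the Lats2 set. Transcripts of blood cells were present as well. The sum over 7 erythroid markers was 17687 to 37741 FPKM in mpECs and bmECs, 3339 to 5031 in the Yap1/Taz set and 146 to 2579 in the Lats2 set, and the sum over 8 neutrophil markers was 9442 to 27761, 1634 to 3832 and 705 to 2884 FPKM. In such bulk samples, a lower level can reflect fewer cells of a type or less RNA per cell, and these cannot be told apart.

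The targeted genes were inspected next, as a check of the labels. In the Yap1/Taz set, Wwtr1 was 10.01, 9.88 and 10.34 FPKM in the controls but 15.3, 19.6 and 19.5 FPKM in the libraries labelled Yap1/Taz ECKO (log2 fold change 0.78 ± 0.12 SE, limma adjusted p = 0.0272). This direction is opposite to a loss of Wwtr1 mRNA in the labelled libraries. Yap1 was 1.07, 1.62 and 0.995 FPKM in the controls and 1.43, 1.03 and 0.989 FPKM in the labelled libraries, without a detectable difference (log2 fold change −0.04 ± 0.18 SE, limma adjusted p = 0.934). Directions from this set are therefore those of the libraries as labelled. In the Lats2 set, Lats2 was 23.4 and 24.0 FPKM in the controls and 19.2 and 19.2 FPKM in Lats2 cKO, which did not pass the test (log2 fold change −0.29 ± 0.11 SE, limma adjusted p = 0.125). A value for the whole gene does not resolve the loxP-flanked exons, so these levels do not by themselves show whether recombination took place. The study itself reports reduced Yap1 and Wwtr1 transcripts in ECs freshly isolated from Yap1/Taz mutant bone, measured by quantitative PCR. It also reports reduced Lats2 transcripts in ECs of the Lats2 mutants.

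In every library the same 2 alpha subunits led the group: Hif1a and Epas1 each stood above all other members in 16 of 16 libraries. Epas1 exceeded Hif1a in 13 of 16. In mpECs the order by mean level was Epas1 (64.2 ± 10.1 FPKM, SD, n = 3), Hif1a (48.5 ± 3.44), Vhl (18.6 ± 1.80), Egln2 (10.2 ± 1.301), Egln1 (6.69 ± 0.460), Arnt (5.28 ± 0.726), Hif1an (2.83 ± 0.425) and Egln3 (0.548 ± 0.298), and in this order the libraries of each gene lay above those of the next. In bmECs Hif1a (94.7 ± 10.3) came before Epas1 (82.1 ± 8.95), and neither this pair nor Egln2 (9.88 ± 1.303) and Egln1 (9.33 ± 1.22) was separated by its libraries. In the Yap1/Taz set the order was led by Epas1 (29.0 ± 2.81 in the controls and 33.9 ± 2.15 in the labelled libraries) and Hif1a (25.3 ± 2.10 and 27.3 ± 3.31), followed by Egln2 (16.7 ± 1.90 and 16.1 ± 2.25). Egln3 and Vhl came next and overlapped with each other in both groups, Egln3 also with Egln2 in the labelled libraries, Epas1 also with Hif1a in the controls and Arnt with Hif1an in the controls. In the Lats2 controls the order was Epas1 (82.3 ± 14.6, SD, n = 2), Hif1a (60.9 ± 0.831), Egln2 (33.6 ± 2.29), Egln1 (25.3 ± 0.569), Vhl (22.2 ± 0.446), Arnt (11.1 ± 0.638), Hif1an (5.70 ± 0.326) and Egln3 (0.920 ± 0.408), each above the next in both libraries. In Lats2 cKO, Egln1 (32.9 ± 8.17) came before Egln2 (27.9 ± 0.123) and Egln3 (17.0 ± 12.4) before Vhl (15.7 ± 2.49), and both pairs overlapped. The plot of levels by library shows these orders.

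**Figure D1:**
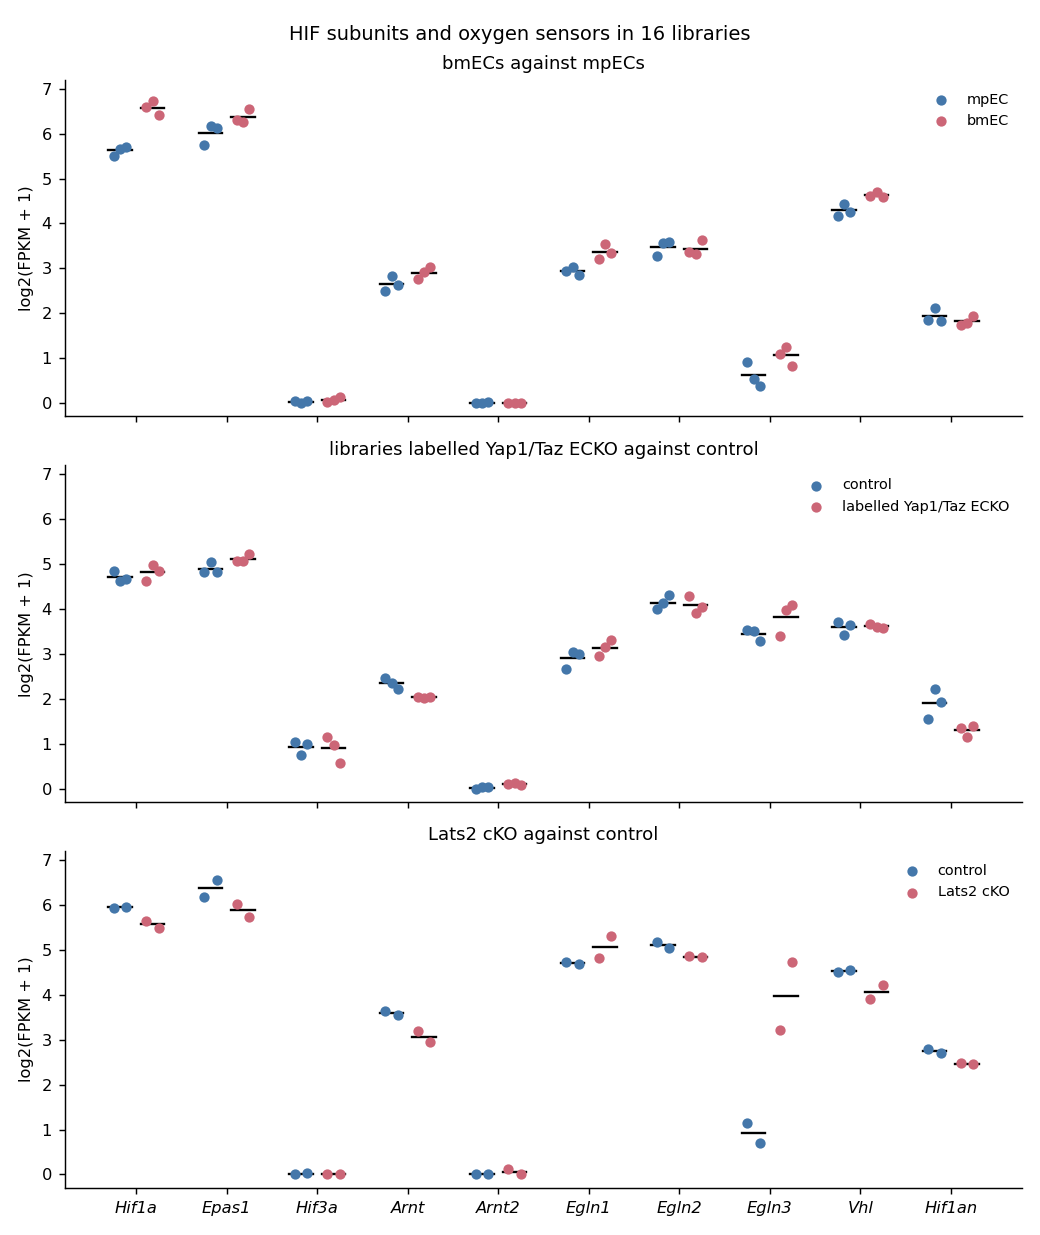
Level of each of the 10 genes on the log2(FPKM + 1) scale in each of 16 libraries (points), with the group mean (bar), in the 3 separately normalized sets. Hif1a and Epas1 lie at the top of every panel, Arnt2 lies near 0 in all panels and Hif3a in those of mpECs, bmECs and the Lats2 set, and Egln3 lies near the bottom for mpECs, bmECs and the Lats2 controls but among the hydroxylases in the Yap1/Taz set and in Lats2 cKO.

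Hif3a, an alpha subunit that lacks the C-terminal activation domain of the others, and Arnt2, a beta subunit best known from neurons, were at the bottom of the order. Arnt2 was listed at 0 in 9 of 16 libraries, where 3 reads would correspond to 0.0316 to 0.0822 FPKM, and its highest value was 0.0885 FPKM. Hif3a was at 0 in 4 libraries, with a floor of 0.0448 to 0.118 FPKM, and reached 0.0886 FPKM in bmECs and 0.0250 FPKM in the Lats2 set. In the Yap1/Taz set, which was normalized separately, Hif3a was at 0.498 to 1.21 FPKM, below Hif1an in each group. Both missed the minimum mean of 1 FPKM in all comparisons and were not tested. Arnt stood above Arnt2 in 16 of 16 libraries. The summed level of the alpha subunits was 21.4 ± 1.65 times that of Arnt and Arnt2 in mpECs and 27.4 ± 2.53 times in bmECs (SD, n = 3), and between 11.5 and 20.6 times in the libraries of the other sets.

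Among the 7 members tested, Hif1a showed the largest regional difference, with a mean level in bmECs that was 1.95 times that in mpECs. Egln1 and Vhl, which act to remove the alpha subunits, were also higher in bmECs, by smaller steps that sit close to the threshold. Epas1, Arnt, Egln2 and Hif1an did not pass the test. Of 7 members tested, 3 were called higher and 0 lower at a limma adjusted p under 0.05, while 13% of all 11422 genes tested were called higher and 10.5% lower (23.5% in either direction). By unadjusted p under 0.05, 4 of the 7 passed, as did 4122 of all 11422 genes tested. The median log2 fold change was 0.35 over the 7 members and −0.00068 over all genes tested.

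Hif1a (ENSMUSG00000021109, chr12:73901375-73947530, + strand, GRCm38) was 44.6, 49.7 and 51.2 FPKM in mpECs and 95.7, 104 and 84.0 FPKM in bmECs. All bmEC libraries lay well above all mpEC libraries. On the log2(FPKM + 1) scale the difference was 0.95 ± 0.10 SE (95% interval 0.71 to 1.19, limma adjusted p = 0.000528), and it was called under all 14 alternatives to the processing. The values rested on 2922 to 5827 reads per library. Some exon bases are shared with other genes (2.51% with Gm49321 on the same strand and 5.60% with Gm15283 on the other), and whether the counting used strand is not given in the sources used here.

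Epas1 (ENSMUSG00000024140, chr17:86753700-86833410, + strand) was 52.5, 71.0 and 69.0 FPKM in mpECs and 78.4, 75.5 and 92.3 FPKM in bmECs. The groups did not overlap, as for 4 of the 7 members and 22.1% of all genes tested in this direction (19.2% in the lower and 41.3% in either direction), but the difference did not pass the test (log2 fold change 0.36 ± 0.13 SE, limma adjusted p = 0.0936). Within a library, Hif1a relative to Epas1 does not depend on how libraries are scaled. The log2 ratio was −0.39 ± 0.14 in mpECs and 0.21 ± 0.31 in bmECs (SD, n = 3), a difference of 0.60 with no overlap. The exact two-sided permutation test gave p = 0.1, the smallest value that 3 libraries against 3 allow. Hif1a made up 41.2% to 45.9% of the summed alpha subunit level in mpECs and 47.6% to 58.0% in bmECs.

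**Figure D2:**
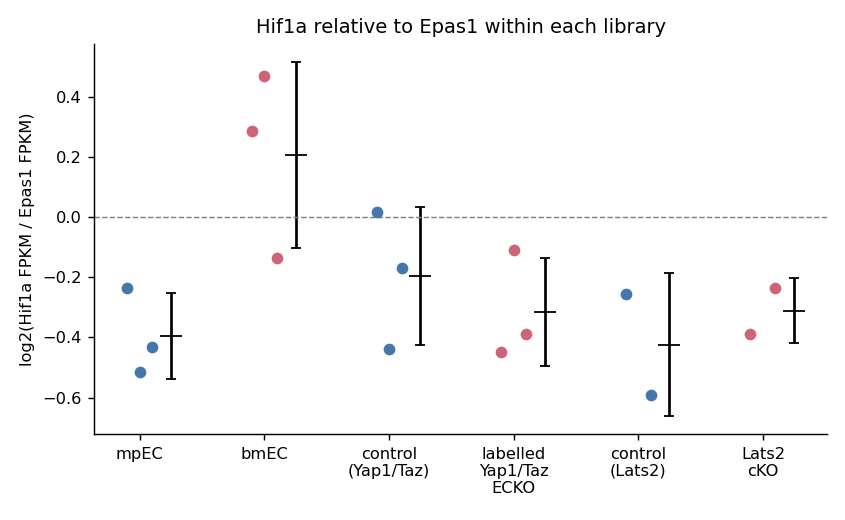
Ratio of Hif1a to Epas1 on a log2 scale within each of 16 libraries (points), with group mean and SD beside them and a dashed line at equal levels. The 3 bmEC libraries lie above the 3 mpEC libraries, while the groups of the Yap1/Taz and Lats2 sets overlap.

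Arnt (ENSMUSG00000015522, chr3:95434388-95497240, + strand), the common partner of the alpha subunits, was 4.62, 6.06 and 5.17 FPKM in mpECs and 5.83, 6.56 and 7.11 FPKM in bmECs. These ranges overlapped, and the difference did not pass the test (log2 fold change 0.26, 95% interval −0.03 to 0.54, limma adjusted p = 0.176).

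Among the prolyl hydroxylases, Egln1 (ENSMUSG00000031987, chr8:124908587-124949324, − strand), which encodes the main HIF hydroxylase PHD2, was 6.72, 7.13 and 6.21 FPKM in mpECs and 8.23, 10.6 and 9.11 FPKM in bmECs. All bmEC libraries were higher than all mpEC libraries (log2 fold change 0.42 ± 0.12 SE, limma adjusted p = 0.0331). This call held in 8 of 14 alternatives and was lost without mpEC replicate 1 (adjusted p = 0.0658), 2 (0.0556) or 3 (0.113), without bmEC replicate 2 (0.104) or 3 (0.0701), and with no filter on low values (0.0629). Egln2 (ENSMUSG00000058709, chr7:27158658-27166802, − strand), which encodes PHD1, was 8.67, 10.8 and 10.996 FPKM in mpECs and 9.29, 8.99 and 11.4 FPKM in bmECs. Its groups overlapped, and the 95% interval of the difference was −0.33 to 0.26 (limma adjusted p = 0.865). Egln3 (ENSMUSG00000035105, chr12:54178981-54203860, − strand), which encodes PHD3, was barely expressed, at 0.882, 0.452 and 0.309 FPKM in mpECs and 1.14, 1.39 and 0.766 FPKM in bmECs. It rested on 8 to 35 reads per library, overlapped between groups and missed the minimum for testing.

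Vhl (ENSMUSG00000033933, chr6:113623959-113631633, + strand), which recognises the hydroxylated alpha subunit, was 17.0, 20.6 and 18.2 FPKM in mpECs and 23.4, 25.1 and 23.1 FPKM in bmECs. The groups did not overlap (log2 fold change 0.35 ± 0.09 SE, limma adjusted p = 0.0327). The call held in 6 of 14 alternatives. It was lost without mpEC replicate 1 (adjusted p = 0.0789) or 3 (0.103) and without bmEC replicate 1 (0.0786), 2 (0.109) or 3 (0.0589), and stood just past the threshold with no filter (0.0501), no variance trend (0.0510) and quantile normalization (0.0550). Hif1an (ENSMUSG00000036450, chr19:44562850-44576274, + strand), which encodes FIH, was 2.62, 3.32 and 2.56 FPKM in mpECs and 2.34, 2.43 and 2.86 FPKM in bmECs, with overlapping groups (95% interval of the log2 fold change −0.41 to 0.19, limma adjusted p = 0.582).

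**Figure D3:**
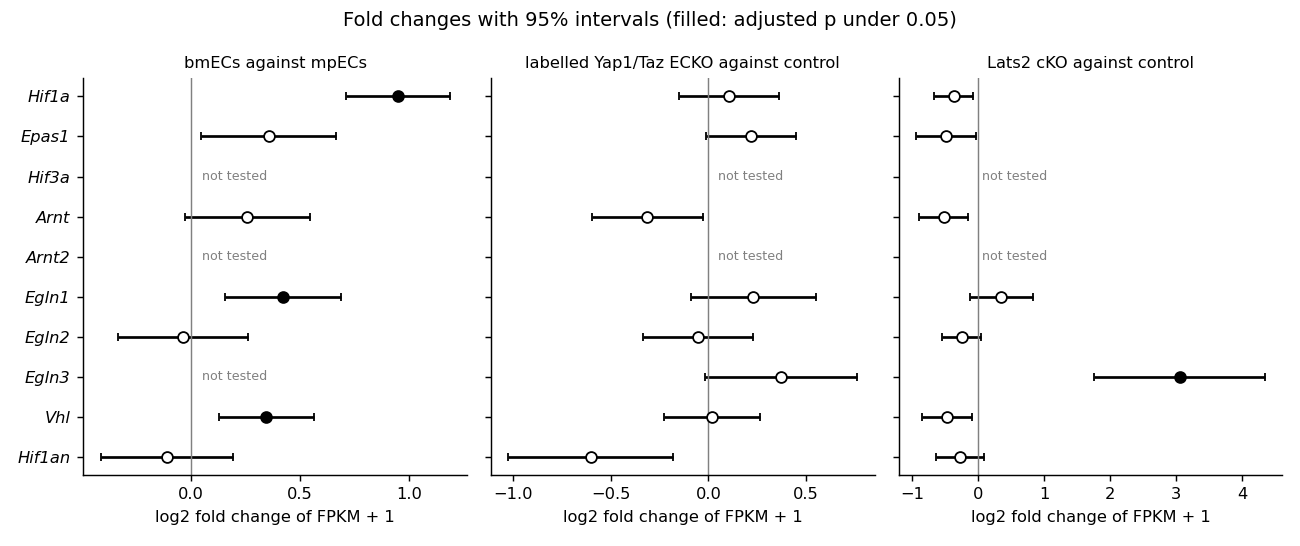
Log2 fold change of FPKM + 1 (points) with 95% interval (bars) from limma for the tested members in the 3 comparisons, where filled points have an adjusted p under 0.05 and each panel has its own horizontal axis. Hif1a, Egln1 and Vhl are filled in bmECs against mpECs, no member is filled in the libraries labelled Yap1/Taz ECKO, and Egln3 alone is filled in Lats2 cKO, where it was tested only through the level of the cKO libraries.

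Other parts of the pathway were described by fixed lists. Of 25 genes known as targets of HIF, 20 were tested between bmECs and mpECs. Of these, 8 were higher, 0 were lower and 12 did not pass the test, with a median log2 fold change of 0.23. Over all genes tested, 13% were called higher and 10.5% lower. Angptl4, a secreted inhibitor of lipoprotein lipase, rose from 73.8 ± 15.7 to 212 ± 56.9 FPKM (log2 fold change 1.49, limma adjusted p = 0.00236). Pdk1, which restrains entry of pyruvate into mitochondria, rose from 8.75 ± 0.815 to 24.4 ± 1.34 FPKM (1.39, adjusted p = 7.57e-05). Bnip3, a mitophagy receptor, rose from 12.6 ± 1.33 to 25.6 ± 3.33 FPKM (0.96, adjusted p = 0.00116), and the vasodilator peptide Adm rose from 6.01 ± 1.25 to 11.5 ± 3.31 FPKM (0.81, adjusted p = 0.031). The count of 8 fell to 5 without mpEC replicate 2, bmEC replicate 1 or bmEC replicate 2.

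None of 5 partners of Vhl in its ligase complex was called between bmECs and mpECs (median log2 fold change 0.07, and −0.09 with quantile normalization), and of 8 tested genes of HIF protein turnover only Gnb2l1, which encodes the scaffold protein RACK1, was called, at 73.1 ± 5.82 FPKM in mpECs and 57.6 ± 2.38 in bmECs (log2 fold change −0.33, limma adjusted p = 0.025). Of 8 tested coactivators and their antagonists, Cited2, which competes with HIF-1α for the coactivators p300 and CBP, was called, from 7.31 ± 1.11 to 25.2 ± 6.89 FPKM (1.63, adjusted p = 0.00109). Of 3 tested relatives in the bHLH-PAS family, Clock was higher (4.55 ± 0.631 and 6.64 ± 0.881 FPKM, 0.46, adjusted p = 0.0388). Over all genes tested, 13% were called higher and 10.5% lower (23.5% in either direction), so a call within a list is common. Of 14 tested other oxygen-dependent dioxygenases, 3 were higher and 1 lower. Those named by the rule were Ado, a thiol dioxygenase (27.1 ± 1.41 and 39.1 ± 4.12 FPKM, 0.51, adjusted p = 0.00774), and the histone demethylase Kdm5a (13.7 ± 0.683 and 19.6 ± 1.48 FPKM, 0.49, adjusted p = 0.00687).

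Markers of other cells differed between these groups, where 13% of all genes tested were called higher and 10.5% lower. Osteoblast markers were lower in bmECs (4 of 6 tested), with a summed level over 8 genes of 230 to 785 FPKM in mpECs and 43.8 to 58.2 FPKM in bmECs. Chondrocyte markers summed to 19.2 to 20.3 against 0.0116 to 0.182 FPKM over 8 genes, with Col2a1, Matn1, Col9a1 and Ihh at 0 in all bmEC libraries. All 3 tested chondrocyte markers were called lower, but they passed the minimum mean only through the mpEC libraries, so the filter favoured a call. Osteoclast markers were lower in 3 of 3 tested, and 1 of 8 macrophage and 1 of 8 B cell markers were lower. None of 8 neutrophil, 7 erythroid and 7 megakaryocyte markers tested was called. Of the endothelial markers, Pecam1, Emcn and Tie1 were lower and 2 of 8 were higher, among them Kdr, and of 6 tested stromal and pericyte markers, 2 were higher and 1 lower in bmECs. Of 9 tested immediate-early and heat shock genes, Jun and Junb were higher in bmECs, with the sum over 10 genes at 799 to 1173 FPKM in mpECs and 969 to 3058 FPKM in bmECs. Their part in the Hif1a, Egln1 and Vhl differences was not tested.

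In the libraries labelled Yap1/Taz ECKO, no member differed from control beyond the test's threshold. Hif1an and Arnt had lower values and Epas1 and Egln3 higher values than control, none of them called. Of 8 members tested, 0 were called higher and 0 lower by limma, against 0.883% and 0.424% of all 11320 genes tested (1.31% in either direction). At an unadjusted p under 0.05 there were 2 members and 2023 of all genes tested, and limma-voom on recovered reads called 0 as well. The median log2 fold change was 0.06 over the 8 members and −0.0047 over all genes.

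Hif1a was 27.7, 23.8 and 24.4 FPKM in the controls and 23.8, 30.4 and 27.8 FPKM in the labelled libraries, with overlapping groups and a 95% interval of −0.15 to 0.36 for the log2 fold change (limma adjusted p = 0.682). Epas1 was 27.3, 32.2 and 27.4 FPKM in the controls and 32.5, 32.8 and 36.4 FPKM in the labelled libraries. The groups were just apart (log2 fold change 0.22 ± 0.10 SE, limma adjusted p = 0.299), where 12.3% of all genes tested had no overlap in this direction and 23.6% in either. The log2 ratio of Hif1a to Epas1 was −0.20 ± 0.23 in the controls and −0.32 ± 0.18 in the labelled libraries (exact two-sided permutation p = 0.6, smallest possible 0.1).

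Arnt was 4.55, 4.10 and 3.63 FPKM in the controls and 3.10, 3.03 and 3.14 FPKM in the labelled libraries, all of which lay below all controls (log2 fold change −0.31 ± 0.13 SE, limma adjusted p = 0.239). Hif1an showed a similar layout, with 1.95, 3.67 and 2.79 FPKM against 1.56, 1.22 and 1.63 FPKM from 47 to 167 reads per library (log2 fold change −0.60 ± 0.19 SE, limma adjusted p = 0.137). Both fell among the 11.3% of genes whose groups were apart in the lower direction.

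The hydroxylases Egln1 and Egln2 overlapped between the groups. Egln1 was 5.39, 7.27 and 6.99 FPKM in the controls and 6.70, 7.88 and 8.96 FPKM in the labelled libraries (95% interval −0.09 to 0.55, limma adjusted p = 0.436). Egln2 was 15.0, 16.5 and 18.8 FPKM and 18.6, 14.2 and 15.7 FPKM (95% interval −0.33 to 0.23, adjusted p = 0.874). Egln3 was well expressed in this set, at 10.6, 10.5 and 8.74 FPKM in the controls and 9.49, 14.7 and 16.1 FPKM in the labelled libraries, with replicate 1 of the latter inside the control range (log2 fold change 0.37 ± 0.18 SE, limma adjusted p = 0.301). Without that replicate the difference was 0.59, at an adjusted p of 0.0504. Vhl was the most even member, with 12.1, 9.79 and 11.6 FPKM against 11.7, 11.1 and 10.98 FPKM (95% interval −0.23 to 0.26, limma adjusted p = 0.962).

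Of 24 tested HIF targets, 1 was higher and 0 were lower in the labelled libraries, with a median log2 fold change of 0.07. Over all genes tested, 0.883% were called higher and 0.424% lower. The higher target was Vegfa, the vascular endothelial growth factor, which was not tested between mpECs and bmECs (0 to 0.257 FPKM). It was measured at 19.6, 27.8 and 17.6 FPKM in the controls and 42.7, 55.1 and 60.5 FPKM in the labelled libraries (log2 fold change 1.26 ± 0.18 SE, limma adjusted p = 0.0235). With no filter, with no variance trend, or without control replicate 3, labelled replicate 2 or labelled replicate 3, the number of targets called higher was 0. Nothing was called among the 5 partners of Vhl, 10 genes of HIF turnover, 9 coactivators, 3 bHLH-PAS relatives and 15 other dioxygenases tested. All 8 endothelial markers were higher in each labelled library than in each control, as were 12.3% of all genes tested, although 0 of 8 were called. Their sum was 508 to 519 FPKM in the controls and 597 to 693 FPKM in the labelled libraries. Of 5 osteoblast markers tested 2 were lower, with sums of 32.0 to 44.2 and 11.1 to 24.3 FPKM. B cell markers were lower without overlap for 4 of 8, against 11.3% of all genes tested, with 0 called. Of 10 immediate-early and heat shock genes Hspa1b was higher, as was 1 of 7 tested megakaryocyte markers. Their part in the values of the members was not tested.

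In Lats2 cKO, Egln3 showed the largest difference among the 8 members tested. Its mRNA was a trace in the controls, and the ratio of group means was 18.5. Egln3 lay below Vhl in cKO replicate 1 (8.26 against 14.0 FPKM) and above it in cKO replicate 2 (25.7 against 17.5 FPKM). Egln1 had higher values without passing the test, and the alpha subunits, Arnt, Egln2, Vhl and Hif1an had lower values without passing it. Of 8 members tested, 1 was called higher (Egln3, which entered the test only through the level of the cKO libraries and was not called with no filter, adjusted p = 0.0514) and 0 lower by limma, while 11.8% of all 12453 genes tested were called higher and 9.98% lower (21.8% in either direction). At an unadjusted p under 0.05 there were 5 members and 4805 of all 12453 genes tested. The groups of all 8 tested members were apart, 2 higher and 6 lower, but with 2 libraries against 2 this held for 34% and 34.2% of all genes tested, 68.2% together.

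Egln3 was 1.21 and 0.631 FPKM in the controls and 8.26 and 25.7 FPKM in Lats2 cKO, from 16, 10, 83 and 341 reads. Each cKO library was above each control by 6.84-fold to 40.7-fold, and the cKO libraries themselves were far apart. The log2 fold change on the FPKM + 1 scale was 3.05 ± 0.51 SE (95% interval 1.76 to 4.35, limma adjusted p = 0.0187). The gene passed the minimum mean of 1 FPKM only through the cKO libraries, where it was high, so the filter favoured a call, and with no filter the call was lost (adjusted p = 0.0514). Without cKO replicate 2, the higher of the pair, the difference was 2.29 (adjusted p = 0.042), without cKO replicate 1 it was 3.82 (0.0181), and limma-voom on recovered reads gave 4.11 (0.0193). The call was also lost without control replicate 1 (adjusted p = 0.143) or 2 (0.158), and without either control no gene at all was called.

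The shares of the hydroxylase mRNAs rest on the same values, with Egln3 as part of the sum, and give no separate support for the Egln3 call. Egln3 made up 1.10% and 1.95% of the summed Egln level in the control libraries and 13.03% and 27.9% in the cKO libraries, and Egln2 made up 55.6% to 56.7% and 30.2% to 44.2%. The share of Egln1 was 41.4% to 43.3% in the controls and 41.9% to 42.8% in cKO. For comparison within the other sets, Egln3 made up 1.77% to 5.42% in mpECs, 3.60% to 6.61% in bmECs and 25.3% to 40.0% over the Yap1/Taz libraries.

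**Figure D4:**
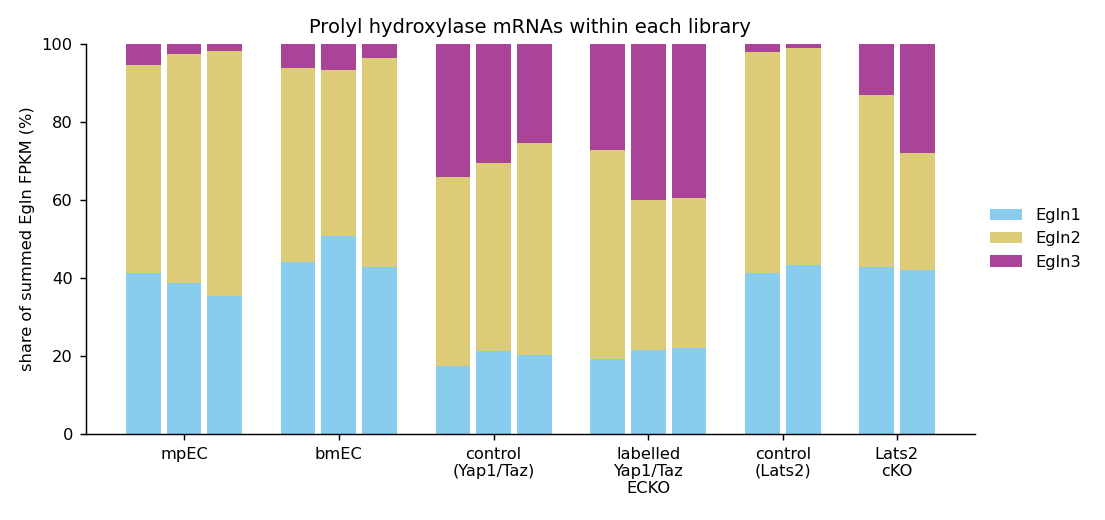
Share of Egln1, Egln2 and Egln3 in their summed FPKM (stacked bars, %) in each of 16 libraries, grouped by sample type. Egln3 is a thin band in mpECs, bmECs and the Lats2 controls, 13.03% and 27.9% in the Lats2 cKO libraries and over 25% in every Yap1/Taz library.

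Egln1 was 25.7 and 24.9 FPKM in the controls and 27.1 and 38.7 FPKM in Lats2 cKO (log2 fold change 0.35 ± 0.19 SE, limma adjusted p = 0.239). As for Egln3, cKO replicate 2 was the higher library, and without cKO replicate 1 the difference was 0.60 and passed the test (adjusted p = 0.0429). Egln2 was 35.2 and 31.9 FPKM against 28.0 and 27.8 FPKM (95% interval −0.55 to 0.04, limma adjusted p = 0.177).

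The alpha subunits were lower in both cKO libraries than in both controls. Hif1a was 60.3 and 61.4 FPKM in the controls and 49.2 and 44.2 FPKM in cKO (log2 fold change −0.38 ± 0.12 SE, limma adjusted p = 0.0767), and passed the test only with quantile normalization (−0.48, adjusted p = 0.0483). Epas1 was 72.0 and 92.6 FPKM in the controls and 64.4 and 52.0 FPKM in cKO (−0.49 ± 0.18 SE, limma adjusted p = 0.111). Their log2 ratio was −0.42 ± 0.24 in the controls and −0.31 ± 0.11 in cKO (SD, n = 2), and the exact two-sided permutation p was 0.667, where 2 against 2 cannot go below 0.333. Arnt was 11.5 and 10.6 FPKM against 8.11 and 6.70 FPKM (−0.53 ± 0.15 SE, limma adjusted p = 0.0609), and was called only by limma-voom on recovered reads (adjusted p = 0.0315).

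Vhl was 21.9 and 22.5 FPKM in the controls and 14.0 and 17.5 FPKM in Lats2 cKO (log2 fold change −0.48 ± 0.15 SE, limma adjusted p = 0.0753), and Hif1an was 5.93 and 5.47 FPKM against 4.57 and 4.47 FPKM (−0.28 ± 0.15 SE, adjusted p = 0.224). Of 5 partners of Vhl in its ligase complex, 4 were higher and 1 did not pass the test, while 11.8% of all genes tested were called higher. Tceb2, which encodes elongin B, rose from 172 ± 14.3 to 350 ± 86.1 FPKM (log2 fold change 1.01, limma adjusted p = 0.0268), and Tceb1, which encodes elongin C, rose from 34.2 ± 2.48 to 64.3 ± 12.04 FPKM (0.88, adjusted p = 0.0236). Nedd8, the modifier that activates cullins, rose from 132 ± 5.47 to 220 ± 25.2 FPKM (0.73, adjusted p = 0.0233), and the RING subunit Rbx1 rose from 68.0 ± 3.25 to 105 ± 9.51 FPKM (0.61, adjusted p = 0.0287). The median log2 fold change of the 5 was 0.73, against −0.0033 over all genes tested. The count of 4 was 0 without cKO replicate 2, without either control and with no filter. Processed copies of such short, abundant transcripts exist in the genome, so their counts are uncertain.

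Of 21 HIF targets tested in Lats2 cKO, 9 were higher, 2 were lower and 10 did not pass the test, with a median log2 fold change of 0.80. Over all genes tested, 11.8% were called higher and 9.98% lower, so the count of 2 lower targets lies near the share of all genes. Adm rose from 6.26 and 8.03 FPKM to 109 and 311 FPKM (4.51 ± 0.49 SE, limma adjusted p = 0.00986). Ankrd37, an ankyrin repeat protein, rose from 0.716 and 1.32 to 12.5 and 32.6 FPKM (3.42 ± 0.45 SE, adjusted p = 0.0125). The glycolytic enzymes Tpi1 (40.1 and 44.4 against 120 and 220 FPKM, 1.92, adjusted p = 0.0156) and Eno1 (52.0 and 54.5 against 119 and 170 FPKM, 1.40, adjusted p = 0.0131) rose as well. For each of these 4 genes, as for Egln3, cKO replicate 2 had the highest value. The 2 lower targets, named after their values were seen, were Vegfa (7.77 and 7.48 against 1.296 and 1.03 FPKM, −1.998, adjusted p = 0.00758) and Pdk1 (9.71 and 11.04 against 4.67 and 4.78 FPKM, −0.99, adjusted p = 0.0141). Without cKO replicate 2 the count of higher targets was 5, and without either control it was 0. The glycolytic genes have many processed copies, so their counts are uncertain.

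**Figure D5:**
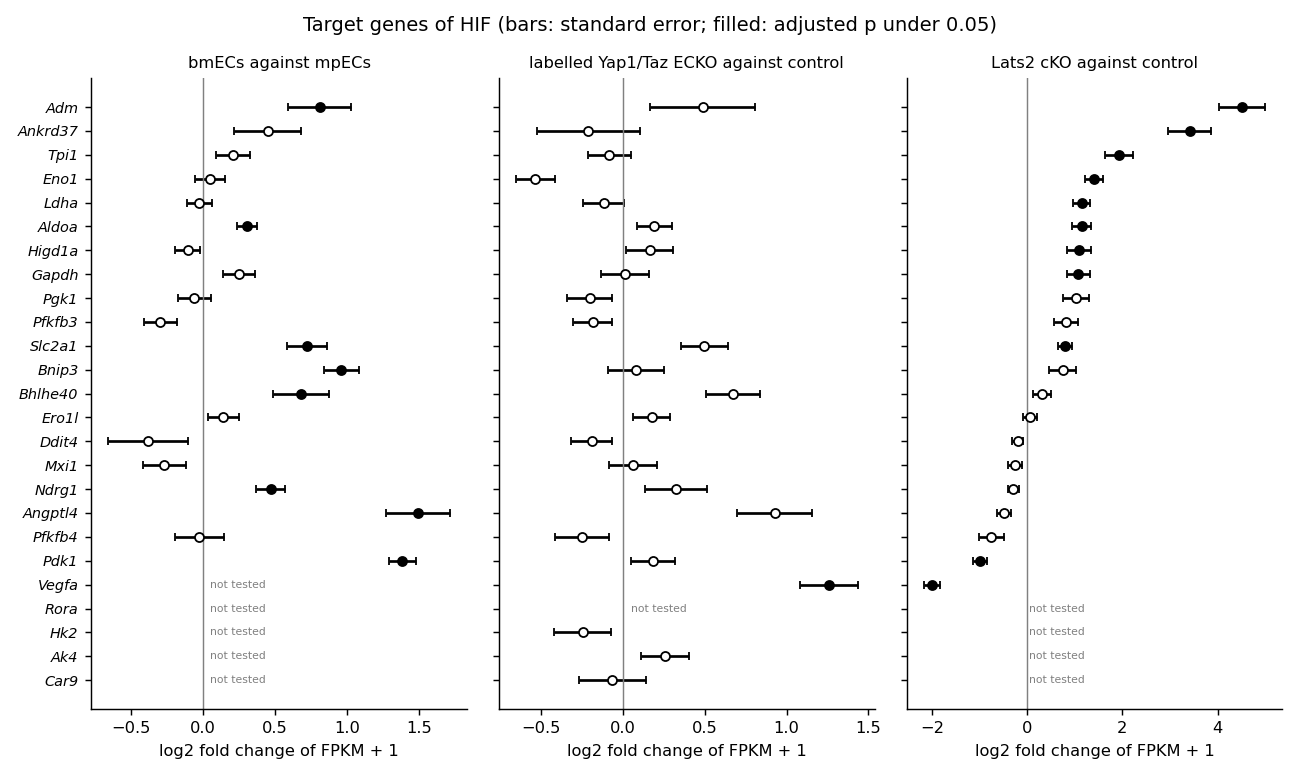
Log2 fold change of FPKM + 1 with SE (bars) for 25 target genes of HIF in the 3 comparisons, where filled points have a limma adjusted p under 0.05, genes are ordered by their value in Lats2 cKO and each panel has its own horizontal axis. Of the tested genes 8 are filled on the higher side in bmECs, 1 in the libraries labelled Yap1/Taz ECKO and 9 in Lats2 cKO, where Vegfa and Pdk1 are filled on the lower side.

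Among the remaining lists, 2 of 10 tested turnover genes were higher and 1 was lower in Lats2 cKO. Over all genes tested, 11.8% were called higher and 9.98% lower (21.8% in either direction), so here too a call within a list is common. Gnb2l1 rose from 30.2 ± 1.45 to 58.8 ± 2.96 FPKM (0.94, limma adjusted p = 0.0115) and the chaperone Hsp90aa1 from 18.0 ± 0.373 to 34.4 ± 3.46 FPKM (0.90, adjusted p = 0.0139), while Siah1a, a ligase that targets prolyl hydroxylases, fell from 33.2 ± 3.81 to 22.3 ± 1.18 FPKM (−0.55, adjusted p = 0.0438). Of 8 coactivator genes Cited2 was lower (44.9 ± 8.48 and 21.4 ± 3.47 FPKM, −1.03, adjusted p = 0.0224). Of 3 bHLH-PAS relatives the xenobiotic receptor Ahr (11.5 ± 1.05 and 4.83 ± 1.07 FPKM, −1.11, adjusted p = 0.0177) and the clock factor Arntl (19.6 ± 0.595 and 11.7 ± 1.89 FPKM, −0.70, adjusted p = 0.0315) were lower. Of 14 other dioxygenases the collagen prolyl hydroxylase subunit P4ha2 was higher (3.37 ± 0.758 and 7.60 ± 0.594 FPKM, 0.99, adjusted p = 0.0237) and the histone demethylase Kdm3a lower (16.2 ± 1.98 and 8.51 ± 0.375 FPKM, −0.85, adjusted p = 0.0189).

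The Lats2 cKO libraries also differed from their controls in markers of other cells. Over all genes tested, 11.8% were called higher and 9.98% lower. Neutrophil markers were lower in 6 of 8 tested (sums of 1932 to 2884 against 705 to 848 FPKM), B cell markers in 6 of 7 (93.7 to 106 against 27.6 to 34.5 FPKM over 8 genes) and erythroid markers in 3 of 7. The erythroid sum was 2579 and 1876 FPKM in the controls, 1074 FPKM in cKO replicate 1 and 146 FPKM in cKO replicate 2, the library with the higher Egln3. Stromal and pericyte markers were higher in 4 of 7 tested (53.9 to 67.6 against 109 to 111 FPKM over 8 genes), while the endothelial sum was 2058 to 2225 and 2144 to 2155 FPKM, with 1 of 8 higher and 2 lower. Further, 1 of 5 osteoblast and 1 of 3 osteoclast markers tested were higher and 1 of 6 megakaryocyte markers was lower. The megakaryocyte markers Gp1bb, Gp9 and Treml1 were at 0 in all cKO libraries. Any of them that was tested passed the minimum mean only through the controls, so the filter favoured a call. Of 10 immediate-early and heat shock genes, Atf3 was higher and Hspa1a and Hspa1b were lower. Gm23935, a gene annotated as a microRNA that had the highest FPKM in these libraries and was noted after its values were seen, was at 6093 and 7629 FPKM in the controls and 15846 and 26667 FPKM in cKO. The part of these changes in the values of Egln3 and the other members was not tested.

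Likeness to the 2 leading alpha subunits was described over all 16 libraries on log2(FPKM + 1), centred on the mean of each set, among 9069 genes. The genes most like Hif1a were Itga1, the collagen-binding integrin α1 (Pearson r = 0.97), Asah2, a ceramidase (0.96), and Cdc42se2 (0.96). Those most like Epas1 were Dock1, a guanine nucleotide exchange factor (0.94), Tpra1 (0.93) and C2cd2 (0.93). Hif1a itself had an r of 0.73 with Vhl, 0.63 with Epas1, 0.52 with Arnt and 0.42 with Egln1. The points share groups and sequencing depth, and these values are a description without a test.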

How the data were processed

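Total RNA of sorted bone ECs was converted to stranded libraries (TruSeq Stranded Total RNA) and sequenced on a MiSeq, and the submitters' processing notes name TopHat, HTSeq 0.6.1, DESeq2 and the mouse build GRCm38 (mm10). The authors deposited FPKM values per gene, normalized in 3 separate sets of 6, 6 and 4 libraries. The tool that made the FPKM values and its use of strand are not given in the sources used here.

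For each comparison, log2(FPKM + 1) was fitted, for genes whose mean over those libraries reached 1 FPKM, with limma 3.58.1 (R 4.3.3) on its own libraries, with group as the only term and a variance trend. P-values were adjusted over all genes tested (Benjamini-Hochberg), with calls at 0.05. Fold changes on this scale understate those of low genes. The log2 ratio of Hif1a to Epas1 was compared by an exact two-sided permutation test. Reads were recovered from the steps between low FPKM values and exon lengths of GENCODE M21. Among values of up to 20 reads, 62.3% to 69.9% per library fell within 0.02 of a whole read, so that recovered reads are approximate and served for depth and as an alternative (limma-voom). Intervals and floors that rest on reads cover counting error only. The study's methods call the replicates biological, but do not say how many animals each library came from, and p-values measure the spread between these libraries.

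On simulated data, genes changed by a log2 fold of 1 were recovered in 80.6% (bmECs against mpECs), 80.6% (Yap1/Taz) and 20.8% (Lats2). Those changed by 2 were recovered in 100%, 100% and 92.6%, with no wrong sign, over 10682, 11168 and 11625 genes. In the same order, 26, 18 and 15 unchanged genes were called as well. The simulation gave all genes the same dispersion and placed changes only in genes above a minimum of reads. These shares are therefore not recovery rates for the real data. Replicates differed by more than counting noise in every group, and each library was counted as a separate sample.

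The 10 members and the gene lists were chosen with earlier results of these data known. Beside the members, the genes named were the targeted genes, up to 4 called genes per list with the largest change and a mean of at least 5 FPKM, and the 3 genes most like Hif1a and Epas1. Exceptions are marked in the text. Promoter windows came from RefSeq, GRCm38.p6. Alternatives were a pseudocount of 0.1, no filter, a filter at 5 FPKM, no trend, quantile normalization, median centring, leaving out each library, a replicate block and limma-voom.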

Additional observations from a re-analysis of the deposited data

How the results depend on the processing

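Of 303 alternative values for the members, 274 kept their direction and side of the threshold, 17 lost a call, 4 gained one and 8 changed sign, the last all for differences near 0. Between bmECs and mpECs, 1481 genes were called higher and 1201 lower. The members called higher numbered 3, and 1 with no filter and 1 to 2 without any single library. Leaving out a library gave 799 to 1026 genes called lower, and the log2 fold change of Egln2 ranged from −0.138 to 0.0215. In the Yap1/Taz set, 100 genes were called higher and 48 lower, against 0 and 1 with no filter, 10 and 7 with no trend, 271 and 115 by limma-voom, and 0 to 215 and 1 to 78 without 1 library (215 and 78 without labelled replicate 1). There the fold change ranged from −0.153 to 0.0312 for Egln2 and from −0.0672 to 0.0722 for Vhl. In the Lats2 set, 1468 genes were called higher and 1243 lower, against 720 and 669 with no filter, and 0 to 1446 and 0 to 1255 without 1 library, where 0 stood for the fits without either control. The members called higher were 1, and 0 with no filter and 0 to 2 without 1 library, and the members called lower were 0, and 1 with quantile normalization (Hif1a) and 1 by limma-voom (Arnt). The difference in the Hif1a to Epas1 ratio ranged from −0.0544 (without control replicate 2) to 0.281. The fits with no filter tested more genes, and those without a library had fewer samples. In the Lats2 set they left 1 library alone in its group, which was assumed to vary like the other group. Other causes were not tested.

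The deviations of libraries with the same replicate number from their group means correlated at 0.307, 0.0876 and 0.102 for mpECs and bmECs, −0.175, −0.123 and −0.155 for Yap1/Taz and 0.0651 for Lats2. Not all of them were above 0.1 and not every library correlated best with its own number, so the numbers were not taken as pairs. With the replicate number as a block, 1597 genes were called higher and 1475 lower in bmECs, 29 and 16 in the Yap1/Taz set and 1457 and 1198 in the Lats2 set. The block changed the call of 1 member, Epas1 in bmECs (adjusted p = 0.0463). Depth limited Egln3 in mpECs, bmECs and the Lats2 controls, with 8 to 35 reads, as well as Arnt2 in all sets and Hif3a outside the Yap1/Taz set.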
